A study of Mus musculus with 6 samples.

Results

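The Klf4 locus was described through its chromatin contacts in P19, an embryonal carcinoma line of the mouse that leaves its undifferentiated state when given all-trans retinoic acid (ATRA). Its members were all listed pairs of 5 kb bins on chromosome 4 with at least 1 bin centred between 55.3 and 55.7 Mb of the mm9 build, and there were 830 of them among 3,654,014 pairs in all. Klf4 was placed at 55,540,000 by the rule that defines the locus. The Klf4 bins were the 5 kb bin starting there and 1 bin on each side, 55,535,001 to 55,550,000. The distal bins were the 4 bins from 55,470,001 to 55,490,000, where distal elements lie on the 3′ side of the gene by the same rule. Distances in kb from the gene are counted from 55,540,000, negative on the 3′ side.

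In Hi-C, chromatin is fixed and cut, DNA ends held near each other are joined, and the joined fragments are read from both ends and counted. There were 6 libraries in 3 groups of 2: P19 cells without treatment (T0), and P19 cells given 1e-06 M ATRA for 6 h (T6) or 48 h (T48), all of this 1 line and grown as monolayers on gelatine-coated plates. Since no untreated sample matches the 6 h or 48 h time point, an effect of ATRA and one of culture time cannot be told apart. Nothing in the labels shows whether replicates are separate cultures, and p-values here reflect only a spread among samples that may be technical. The table holds contacts and no expression, so neither the cell type nor the level of Klf4 could be checked against markers, and in bulk libraries more cells with a contact and more frequent contact per cell cannot be told apart.

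Klf4 encodes a zinc finger transcription factor that binds GC-rich and CACCC-type sequences. It is one of the factors used to reprogram somatic cells to pluripotency and belongs to the network that keeps mouse embryonic stem cells in the naive state, where its expression falls as cells differentiate. In mouse embryonic stem cells its transcription depends on enhancers on the 3′ side of the gene that are brought near the promoter by chromatin folding. In the RefSeq gene order Rad23b, which encodes a DNA repair protein, is the protein-coding neighbour on the lower-coordinate side, and Actl7b and Actl7a, a pair of actin-like genes, come next on the higher side.

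The promoter is shown as background on the gene and was not placed on a bin of the contact table. The 250 bases upstream of the Klf4 start site in RefSeq lie on the minus strand of chr4:55532476-55532725 in GRCm38.p6, a later build than that of the contact table, and are printed 5′ to 3′ in the sense of the gene. Capitals mark the GC box GGGCGG, searched on both strands.

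Klf4 promoter: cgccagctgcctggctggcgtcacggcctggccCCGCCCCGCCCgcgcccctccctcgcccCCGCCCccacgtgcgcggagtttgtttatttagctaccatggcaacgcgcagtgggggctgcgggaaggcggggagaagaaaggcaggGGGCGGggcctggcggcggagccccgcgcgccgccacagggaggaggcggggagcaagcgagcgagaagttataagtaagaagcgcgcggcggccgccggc

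The window holds 4 GC boxes, 1 on the sense strand and 3 on the other, of which the pair at the far end share a base. A GC box was found in 32.7% of 32,851 RefSeq promoter windows of the same length. The letters CCCTC occur at 2 places on the sense strand, with 0 bases in common with a GC box, and in 60.5% of windows. The letters CACCC (KLF core, 52.0% of windows) and AGGTCA (the repeated unit of retinoic acid receptor sites, 14.02% of windows) had 0 matches on either strand of this window. The G and C content was 74%, against a median of 52.4% over all windows.

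A listed pair carries a raw count of read pairs in each library, and the table names its content as interactions found in both replicates. A pair was above 0 in both replicates of a time point or in neither, so a 0 is a pair not listed, not a measured absence of contact. The listed counts of a library summed to between 23,003,295 and 50,154,643 over the genome. The lowest count listed at 5 kb was between 24 and 30, and at 500 kb or more it was 3 in each library. A list belongs to a time point, so numbers of listed pairs have no replicate error. Of the 80 bins of the locus, 62 had a listed pair (77.5%, against 73.1% of bins over the genome). The 18 bins with none included 55,525,001 to 55,535,000 and 55,550,001 to 55,555,000, which lie on either side of the Klf4 bins, and the distal bin 55,485,001 to 55,490,000.

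No pair joining a Klf4 bin to a distal bin was listed at T0, T6 or T48. The lists thus held 0 of the 12 bin pairs of this block at each time point. Some of the 12 involve the distal bin 55,485,001 to 55,490,000, which had no listed pair with any bin. Blocks of bins of the same shape and spacing, tiled over the genome, gave the background. Only blocks with exactly 6 of their 7 bins in the table, as here, were used. Among 38,238 such blocks, 35.2% held a listed pair at T0, 31.3% at T6 and 32.7% at T48, and 44.5% held none at any time point. An empty block was therefore the commoner state at each time point, and the planned test of this contact had no value to work on.

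The contacts that came nearest to the distal bins from the Klf4 bins were listed at T0 and at neither later time point. The pair with bin centres 55,492,500 and 55,542,500, spanning 50 kb, had counts of 16 and 8 in T0 replicates 1 and 2. The pair at 55,497,500 and 55,537,500, spanning 40 kb, had counts of 13 and 9. Both were close to the limit of the list. The lowest counts listed at 50 kb were 12 and 8, and at 40 kb 13 and 8. They were the only pairs from the Klf4 bins to lower coordinates at any distance, and the partner bin of the first adjoins the upper end of the distal range, with that of the second 1 bin further on.

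The balance of contacts between the sides of the gene was measured as the 3′ share, the percent of listed counts of the Klf4 bins at 20 to 300 kb that went to lower coordinates. At T0 it was 33.7% in replicate 1 (29 of 86 read pairs, 95% Wilson interval 24.6 to 44.2%) and 30.4% in replicate 2 (17 of 56, 19.9 to 43.3%). At T6 it was 0 of 18 and 0 of 13 listed read pairs, and at T48 0 of 38 and 0 of 22. These values of 0 set no upper limit on the share, because a pair below the listing minimum adds nothing to it. For the spans of the 2 pairs listed at T0, 50 and 40 kb, that minimum was 11 and 12 read pairs in T6 replicate 1, 7 and 8 in T6 replicate 2, 11 and 12 in T48 replicate 1, and 8 and 9 in T48 replicate 2. Counts somewhat below those at T0 would have gone unlisted, and a fall in contact is not shown. The exact two-sided permutation test gave p = 0.333 for T6 against T0 and for T48 against T0, the smallest that 2 against 2 libraries allow, and p = 1 for T48 against T6 (adjusted over the 3 comparisons, 0.5, 0.5 and 1). Replicates of a time point share a list, so the libraries are not independent in this measure and the test gives no support. Wilson intervals cover counting error only, and read pairs carry no molecular identifiers.

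The distal bins themselves were contacted, mostly over a few bins or over more than 500 kb. The bin 55,470,001 to 55,475,000 had 6, 5 and 9 listed pairs at T0, T6 and T48, its neighbour had 5 at each time point, and the bin 55,480,001 to 55,485,000 had 7, 9 and 8. Of the ends counted in the distal bins, 8 at T0, 10 at T6 and 13 at T48 belonged to pairs of 500 kb or more, and 2, 1 and 0 to pairs of at least 20 and under 500 kb. Inside the distal range the adjacent bins at 55,472,500 and 55,477,500 had counts of 59 and 34 (T0), 46 and 26 (T6) and 66 and 41 (T48). The log2 ratio of that pair at T48 over T6 was 0.50 (SE 0.17), with an adjusted p of 0.961 in edgeR's quasi-likelihood test over all pairs. The adjacent pair at 55,477,500 and 55,482,500 had 93 and 52, 87 and 44, and 72 and 62 read pairs at T0, T6 and T48. Relative to depth its log2 ratio was 0.03 at T48 over T0, with an adjusted p of 1.00 in the same edgeR test.

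The Klf4 bins had 77 different listed pairs over the time course, most of them listed at 1 time point. There were 27 at T0, 25 at T6 and 38 at T48, of which 18 were listed at T0 alone, 18 at T6 alone and 31 at T48 alone, and 3 at all time points. Turnover was also common over the genome, where 24.7%, 19.1% and 24.5% of all pairs were listed at T0, T6 or T48 alone. There 14.9% were listed at all time points, a larger share than among pairs of the Klf4 bins. Of the genome's pairs of 500 kb or more, 29.2%, 23.8% and 38.5% were listed at T0, T6 or T48 alone. At all time points 1.87% of these long pairs were listed. Next to the gene, the pair at 55,547,500 and 55,557,500, spanning 10 kb, was listed throughout. Its counts were 46 and 39 (T0), 36 and 20 (T6) and 50 and 34 (T48). The T6 values were the lowest for each replicate number, but its log2 ratio of -0.45 (SE 0.23) at T6 over T0 had an adjusted p of 1.00, and that of 0.52 (SE 0.23) at T48 over T6 an adjusted p of 0.988, by edgeR.

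Several short contacts of the Klf4 bins were listed at a single time point. The adjacent bins at 55,537,500 and 55,542,500 were listed at T48 alone with counts of 35 and 28, where the lowest listed at 5 kb were 28 and 25 and the medians 73 and 45. The bin at 55,547,500 was paired at T48 alone with 55,562,500 (counts 30 and 20) and with 55,572,500 (20 and 13), and at T0 alone with 55,567,500 (29 and 21) and with 55,602,500 (12 and 7). In the same order, the lowest counts listed at those spans were 25 and 17, 17 and 12, 22 and 13, and 11 and 7. Partners of this bin that lie a few bins apart were thus listed at different time points. A pair below the minimum goes unlisted, so a change of partner is not shown.

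More long contacts of the Klf4 bins were listed at T48, as over the genome. At 500 kb or more the Klf4 bins had 17 listed pairs at T0, 14 at T6 and 30 at T48, and the partners of all of them lay on the higher-coordinate side. The genome's list of such pairs was 1.25 times as long at T48 as at T0. Few of those of the Klf4 bins were well above the listing minimum: 2, 1 and 7 reached 1.5 times it in both replicates. At 20 kb to under 500 kb they had 9, 10 and 5. Most of the long pairs added between T0 and T48 were in the first Klf4 bin, 55,535,001 to 55,540,000, which ends at the Klf4 position. This bin on the 3′ flank had 9, 7 and 19 long pairs. The second bin, which starts at the Klf4 position, had 4, 5 and 7, and the third had 4, 2 and 4. All listed pairs of the first bin numbered 10, 10 and 21, and at T48 it stood above 95.4% of bins over the genome, up from 50.9% at T0. Among the 25,489 bins that also had 10 pairs at T0, 0.396% had at least 21 at T48, and the median was 9. This bin was singled out after its values were seen, and it was not the only bin of the locus with such a rise. The bin 55,590,001 to 55,595,000, which is not a Klf4 bin, had 8, 7 and 20 listed pairs, of which 0, 2 and 11 were long. It stood above 36.7% of bins at T0 and 94.3% at T48.

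**Figure D1:**
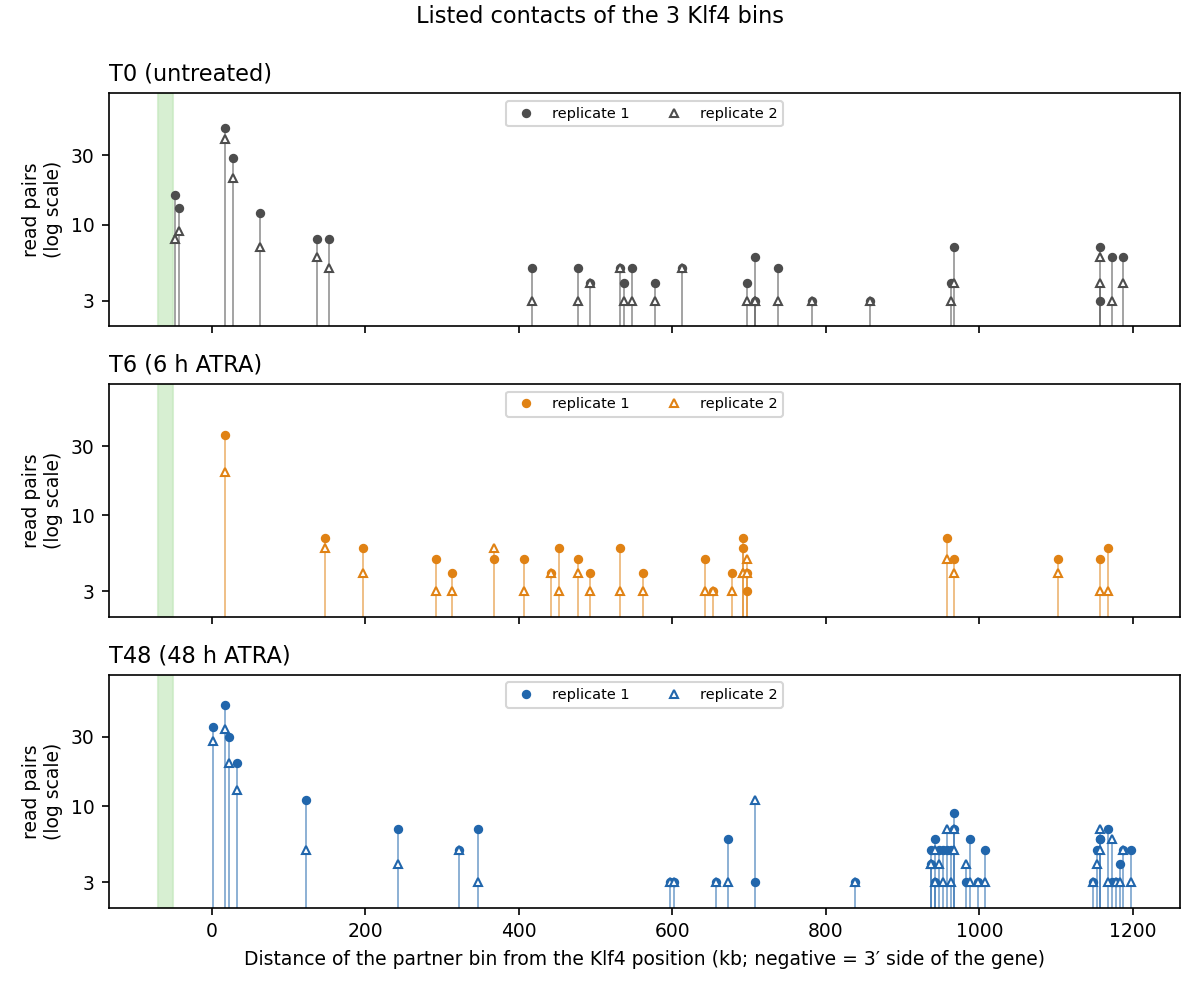
Read pairs in each library (log scale) for every listed contact of the 3 Klf4 bins, against the distance of the partner bin from the Klf4 position in kb; filled circles are replicate 1, open triangles replicate 2, and the green band is the range of the distal bins. The band is empty at each time point, the 2 contacts on the 3′ side appear at T0 alone, and 30 contacts of 500 kb or more are listed at T48 against 17 at T0.

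Single long contacts rested on few read pairs. Ranked by count over the median listed at their distance, the 5 leading contacts of the Klf4 bins at 20 kb or more were all of at least 700 kb. The contact of 55,542,500 with 56,507,500, spanning 965 kb, was listed at T48 alone with counts of 9 and 7, which was 2.29 times the median. That of 55,547,500 with 56,247,500, spanning 700 kb, was listed at T48 alone with 3 and 11, so that its ratio of 2.21 came from replicate 2. The contact of 55,537,500 with 56,697,500, spanning 1160 kb, was listed throughout, with 7 and 6 (T0), 5 and 3 (T6) and 6 and 7 (T48) (1.82 times the median). The bin at 56,497,500 entered the ranking through 55,537,500 at T48 (5 and 7, 1.79 times) and through 55,542,500 at T6 (7 and 5, 1.71 times).

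The locus as a whole was rich in long pairs and poor in pairs of middle length. It had 346 listed pairs at T0, 332 at T6 and 384 at T48. Pairs of 500 kb or more made up 43.1%, 44.3% and 52.1% of them, against 11.6%, 11.4% and 15.2% over the genome. Pairs of 20 kb to under 500 kb made up 32.4%, 29.5% and 23.4%, against 62.7%, 61.8% and 57.5%. Among 400 kb tiles of the genome the long share of the locus stood above 95.4% of tiles at T0, 96.8% at T6 and 97.0% at T48, and its number of middle-length pairs above 10.3%, 9.82% and 7.89%. In counts, long pairs took 9.25% and 13.2% of the locus's listed read pairs in the T0 libraries, 9.86% and 14.1% at T6, and 11.99% and 15.6% at T48. The corresponding genome shares were 2.12% and 3.25%, 2.13% and 3.55%, and 2.98% and 4.04%. The locus was above the genome in each of the 6 libraries, and replicate 2 was above replicate 1 at each time point in both.

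The number of long pairs of the locus was 149, 147 and 200 at T0, T6 and T48. The T48 list was 1.34 times as long as the T0 list at these distances, against 1.25 times over the genome, so the whole table lengthened at these distances too. Among pairs that reached 1.5 times the listing minimum in both replicates the locus grew less than the genome, with 18 and 19 long pairs of the locus at T0 and T48 against 20,143 and 29,979 over the genome. Without that stricter minimum, the T6 list was 0.987 times as long as the T0 list, against 0.831 over the genome. With it the order turned, and the locus fell more than the genome. The locus then had 9 long pairs at T6 against 18 at T0, and the genome 15,938 against 20,143.

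Long contacts of the locus ran almost entirely to one side. Towards higher coordinates there were 142 at T0, 140 at T6 and 189 at T48, and towards lower coordinates 7, 7 and 11. The larger side held 95.3%, 95.2% and 94.5%, against a median of 77.5%, 76.2% and 77.8% over tiles with at least 50 long pairs, and the locus stood above 85.7%, 87.0% and 84.7% of those tiles. Of the 200 bins from 0.5 to 1.5 Mb below the locus 147 had a listed pair, and of the 200 above it 151. All listed pairs with an end in these bins, those with the locus included, numbered 672, 606 and 740 below at T0, T6 and T48. Above the locus they numbered 952, 799 and 901. Whether this difference bears on the side of the long contacts was not tested.

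Partners on the higher side gathered in 3 ranges, defined after the values were seen as 50 kb windows with at least 40 pairs over the time course. The first, 56,200,001 to 56,250,000, lay 660 to 710 kb from the gene and had 18, 18 and 17 pairs with the locus at T0, T6 and T48. The third, 56,650,001 to 56,750,000, at 1110 to 1210 kb, had 31, 34 and 47, and its T48 to T0 ratio of 1.52 was near the 1.43 of all pairs at those distances. The Klf4 bins contributed 3, 5 and 2 pairs to the first range and 4, 2 and 10 to the third. The other bins of the locus had 27, 32 and 37 pairs with the third range, a T48 to T0 ratio of 1.37.

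The second range, 56,450,001 to 56,550,000, lay 910 to 1010 kb from the gene and had 30, 26 and 57 pairs at T0, T6 and T48. Its T48 to T0 ratio was 1.90, against 1.34 for all pairs of the genome at the same distances. The Klf4 bins contributed 2, 2 and 14 of these pairs, and the other bins of the locus 28, 24 and 43, a ratio of 1.54. In read pairs the range summed to 134 and 110 (T0), 124 and 90 (T6) and 276 and 224 (T48). Mean counts per listed pair stayed between 3.46 and 4.84, so the sums moved with the number of pairs listed, and replicates that share a list add no independent support. When a pair had to reach 1.5 times the distance's listing minimum in both replicates, 3, 3 and 9 pairs of this range remained, against 1, 2 and 0 of the first range and 8, 0 and 4 of the third, where the order of T0 and T48 turned.

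**Figure D2:**
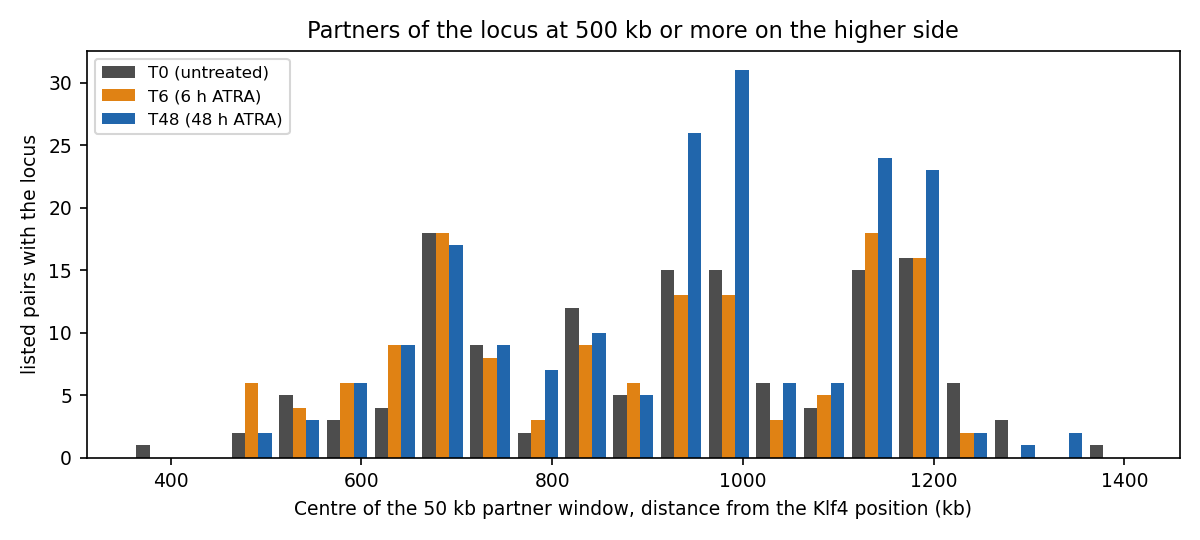
Number of listed pairs of 500 kb or more between the locus and each 50 kb window on the higher-coordinate side, against the distance of the window's centre from the Klf4 position in kb; bars are T0, T6 and T48, and the farthest window, with 1 pair, is not drawn. The windows from 910 to 1010 kb together hold 57 pairs at T48 against 30 at T0, and those from 660 to 710 kb hold 17 against 18.

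Single partner bins recurred within these ranges. The bin 56,505,001 to 56,510,000 was joined to the locus by 4, 6 and 8 pairs at T0, T6 and T48, the bin 56,690,001 to 56,695,000 by 5, 6 and 5, and the bin 56,695,001 to 56,700,000 by 7, 3 and 6. Of the 449 long pairs of the locus, 5 (1.11%, against 1.87% over the genome) were listed at all time points, and they ended in the second or the third range. One of them joined 55,537,500, a Klf4 bin, to 56,507,500 over 970 kb, with counts of 7 and 4 (T0), 5 and 4 (T6) and 7 and 5 (T48). The longest joined 55,522,500 to 56,737,500 over 1215 kb, with 5 and 5, 4 and 3, and 5 and 4. Their counts were too low for the filter of the edgeR test. They entered the fit without that filter and the DESeq2 fit, which called 0 of the 75 locus pairs in each comparison.

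The bins with most contacts lay on the 3′ side of the gene, close to it. The 3 bins with most listed pairs over the time course were 55,520,001 to 55,525,000 with 16, 20 and 18 at T0, T6 and T48, 55,490,001 to 55,495,000 with 10, 18 and 17, and 55,515,001 to 55,520,000 with 18, 11 and 15. Long pairs numbered 12, 13 and 13 in the first of these bins, 5, 11 and 11 in the second and 10, 8 and 9 in the third. They were the majority except in the second bin at T0, where they were 5 of 10. The bin 55,490,001 to 55,495,000 adjoins the distal range and stood above 50.9% of bins over the genome at T0, above 93.2% at T6 and above 88.9% at T48. The median bin of the locus had 7, 7 and 8 pairs, against 9, 8 and 9 over the genome.

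**Figure D3:**
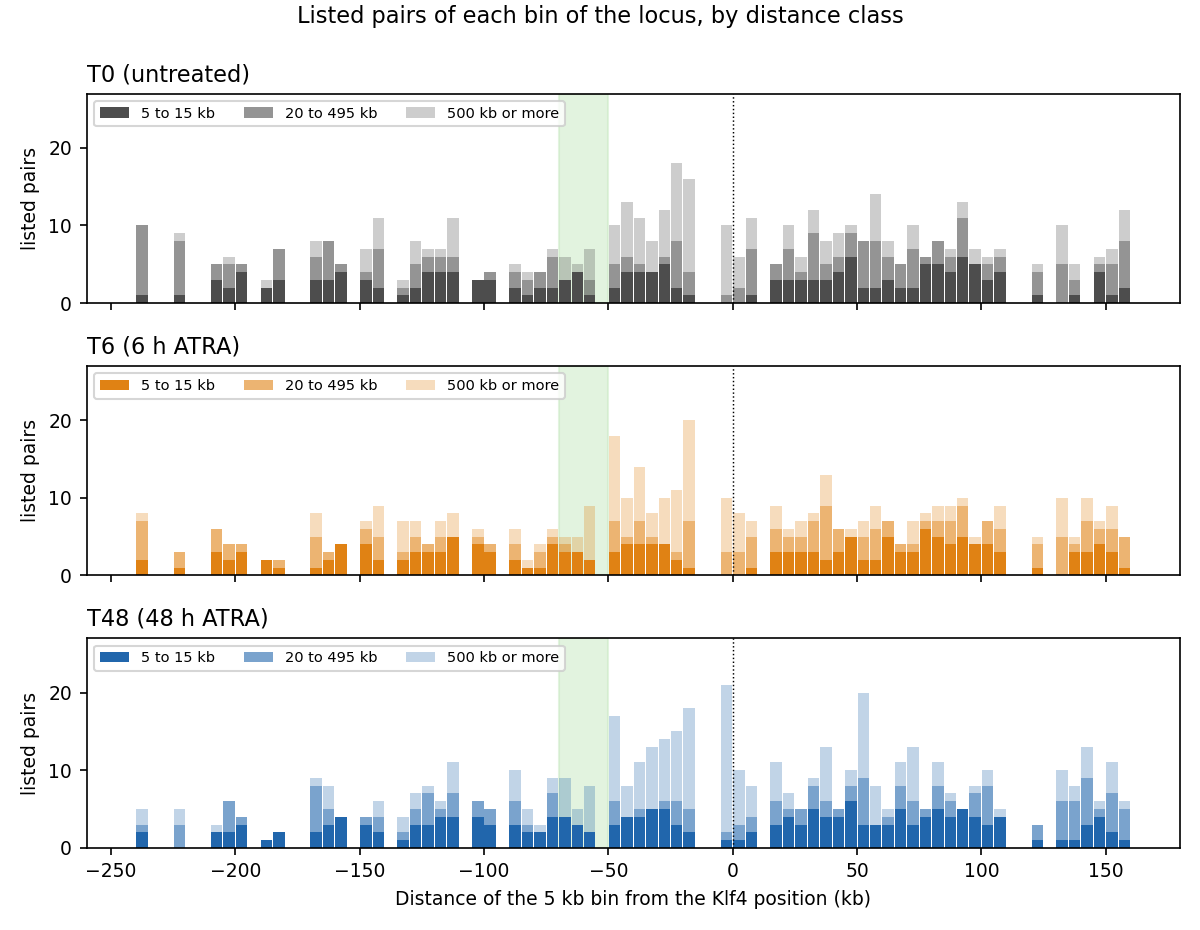
Listed pairs of each 5 kb bin of the locus, stacked by distance class (5 to 15 kb, 20 kb to under 500 kb, 500 kb or more), against distance from the Klf4 position in kb; the dotted line is the Klf4 position and the green band the distal bins. The first Klf4 bin has 10, 10 and 21 pairs at T0, T6 and T48, and the bin just above the distal range has 10, 18 and 17.

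The distal bins coincided with a low point in the contacts that pass over the locus. Pairs of 20 kb to under 500 kb that span each border between bins were counted. At T0 the lowest number was 3, at 70 to 60 kb on the 3′ side of the gene, and at T48 it was 3, at 70 to 50 kb. At T6 the lowest was 4, at 240 and at 135 kb on the 3′ side, and the distal range was crossed by a few more pairs. Over the Klf4 position the numbers were 10 at T0, 19 at T6 and 9 at T48. At the highest border of the locus they were 45, 58 and 46, and at the lowest 11, 4 and 7. Towards Actl7b the numbers thus rose above that at the gene at each time point. On the 3′ side they passed it in places at T0 and T48, though not at T6. They reached 19 at 220 kb at T0 and 12 at 110 kb at T48.

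**Figure D4:**
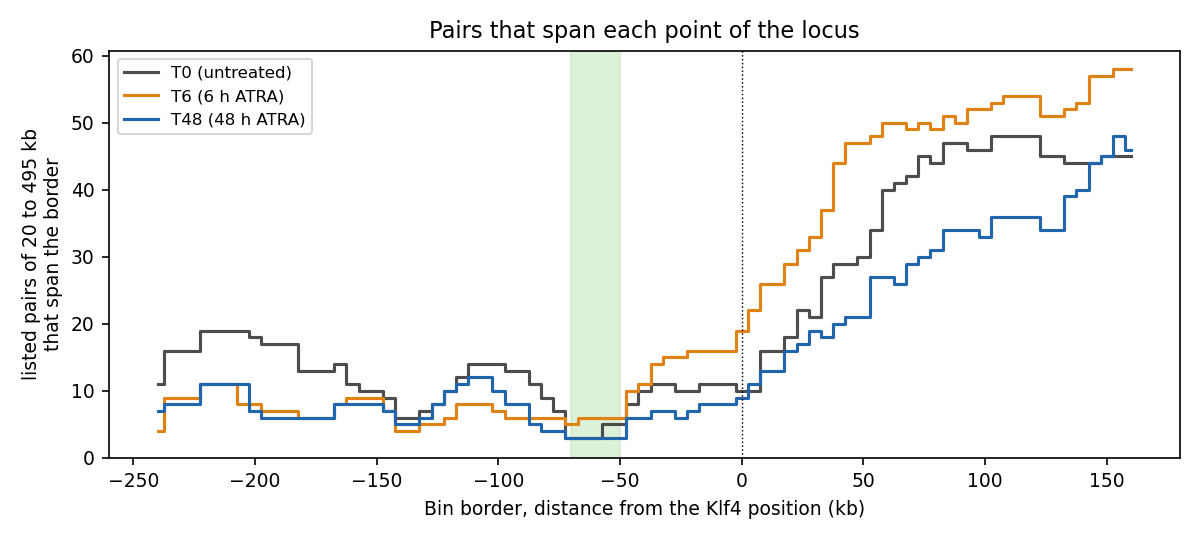
Number of listed pairs of 20 kb to under 500 kb that span each bin border, against the distance of the border from the Klf4 position in kb, for T0, T6 and T48; the green band marks the distal bins and the dotted line the Klf4 position. The T0 and T48 curves fall to 3 in the band, and all curves rise on the side of positive distances, to 45, 58 and 46 at the last border.

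Contacts of neighbouring bins were more often kept between lists than longer ones. Of the 85 pairs of 5 to 15 kb listed at T0, 74 (87.1%) were also listed at T48, against 81.7% over the genome. Of the 112 pairs of 20 kb to under 500 kb, 10 (8.93%) were, against 29.4% over the genome. Adjacent bins were listed in 35 of 48 possible cases at T0 (72.9%), 39 at T6 (81.3%) and 42 at T48 (87.5%), against 76.4%, 70.2% and 80.8% over the genome. In all, T0 and T48 shared 104 pairs of the locus, which was 30.1% of the T0 list and 27.1% of the T48 list, against 40.9% and 42.8% over the genome.

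Contact strength was tested on pairs listed at all time points, for which each library has a count. There were 75 such pairs in the locus, and 70 passed the filter on low counts, 1 of them with an end in a Klf4 bin. Of the 70, edgeR called 0 at an adjusted p under 0.05 in each of the comparisons T6 over T0, T48 over T0 and T48 over T6, as it did over all pairs of the genome (0%). At an unadjusted p under 0.05 it found 3, 4 and 4 of the 70, against 3.17%, 5.52% and 5.06% of all pairs, and DESeq2 called 0 of the locus in each comparison. In 21 of the 70 pairs both T48 libraries were above both T0 libraries in CPM (counts scaled by the TMM library size), against 17.5% of all pairs, and in 6 (8.57%) both were below, against 18.3%. For T6 over T0 these counts were 16 above (15% of all pairs) and 12 below (15.4%), and for T48 over T6 they were 15 above (17.6%) and 6 below (17.4%). These shares are descriptions, since neighbouring pairs share bins.

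The pairs with the lowest p in each comparison were all of 5 to 20 kb. This follows largely from what could be tested, since 64 of the 75 locus pairs listed at all time points were of 5 to 15 kb. At T48 over T0 they were led by 55,687,500 with 55,697,500, which had counts of 48 and 22 (T0), 44 and 22 (T6) and 59 and 41 (T48). Its log2 ratio was 0.64 (SE 0.18, edgeR adjusted p 0.812). The pair 55,512,500 with 55,517,500, close to the dense bins on the 3′ side, had 45 and 33, 53 and 47, and 88 and 47, with a log2 ratio of 0.86 at T48 over T0 (SE 0.28, edgeR adjusted p 0.855). The pair 55,377,500 with 55,392,500 was lower at T48 by a log2 ratio of -0.50 (SE 0.20, edgeR adjusted p 0.886). At T6 over T0 the pairs 55,637,500 with 55,647,500 and 55,417,500 with 55,422,500 had log2 ratios of 0.59 and 0.48, and 55,317,500 with 55,337,500 had -0.70, each with an edgeR adjusted p of 1.00. The last of these had counts of 58 and 20 (T0), 29 and 13 (T6) and 47 and 30 (T48), and at T48 over T6 its log2 ratio was 0.81 (SE 0.27, edgeR adjusted p 0.952). None of these differences passed the test.

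Summed over 50 kb windows, the counts gave the same picture. EdgeR called 0 of the 8 windows of the locus in each comparison, against 0% of windows over the genome for T6 over T0, 0.0263% for T48 over T0 and 0.0182% for T48 over T6. Unadjusted p was under 0.05 in 0, 1 and 0 of the 8, against 1.73%, 8.59% and 6.72% of all windows, and DESeq2 called 0. Both T48 libraries were above both T0 libraries in 3 of the 8 (20.2% of all windows) and below them in 1 (19.1%). The window 55,550,001 to 55,600,000, just beyond the gene on the higher side, had 20.9 and 20.8 CPM (T0), 21.5 and 22.4 (T6) and 24.2 and 22.6 (T48). Both T48 libraries were above the other 4, with a log2 ratio of 0.17 at T48 over T0 (SE 0.063, unadjusted p 0.0343 and adjusted p 0.559 by edgeR). The window 55,500,001 to 55,550,000, which holds the gene, had 17.2 and 18.9 CPM (T0), 16.3 and 18.8 (T6) and 19.7 and 18.7 (T48), with overlapping groups and a log2 ratio of 0.10 at T48 over T0 (SE 0.095, edgeR adjusted p 0.833). Only 3 pairs listed at all time points had an end in a Klf4 bin. The one with most read pairs had 46 and 39 at T0, of window sums of 618 and 387. These sums thus rest largely on other bins of the window and do not measure the contacts of the gene itself. The window 55,450,001 to 55,500,000, which holds the distal bins, had 18.6 and 17.0 CPM (T0), 17.6 and 19.7 (T6) and 21.1 and 20.01 (T48), with a log2 ratio of 0.20 (SE 0.086, edgeR adjusted p 0.585).

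**Figure D5:**
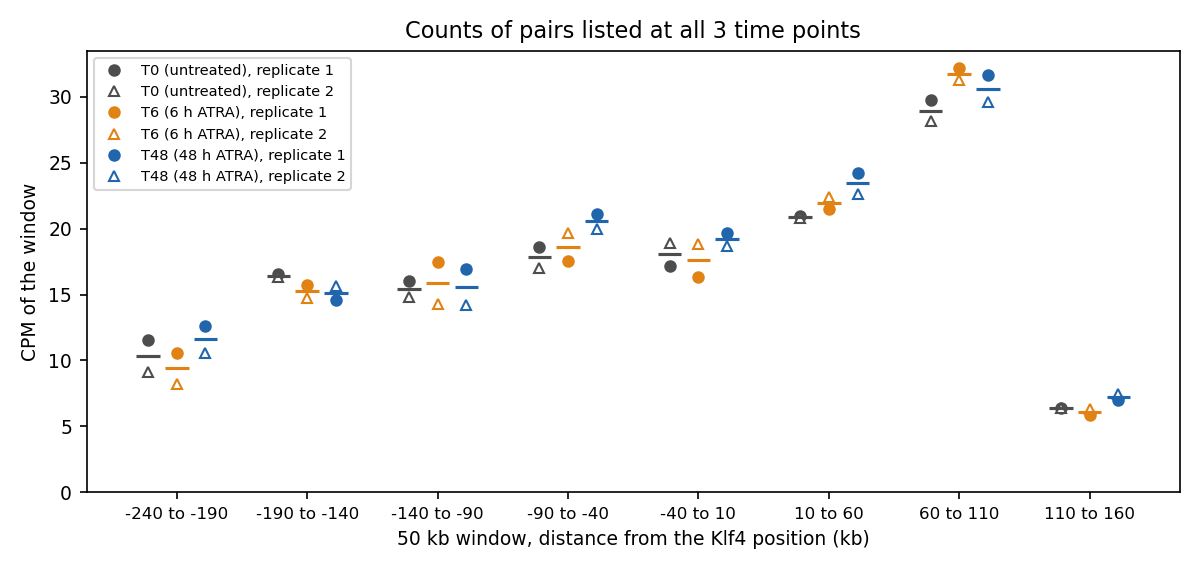
CPM of pairs listed at all 3 time points in each 50 kb window of the locus, by distance of the window from the Klf4 position in kb; filled circles are replicate 1, open triangles replicate 2, and bars the mean of 2 libraries. Groups overlap in the window that holds the gene, whose sums rest largely on bins other than the Klf4 bins. The window from 10 to 60 kb, like some others, has both T48 libraries above those of T0 and T6. Its mean goes from 20.9 CPM at T0 to 23.4 at T48, with an edgeR adjusted p of 0.559.

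Over the whole 400 kb the summed counts were 4393 and 2386 (T0), 4022 and 2103 (T6) and 4176 and 2606 (T48). In CPM this was 141 ± 4.17 at T0, 144 ± 2.30 at T6 and 150.3 ± 5.27 at T48 (SD, n = 2). T48 over T0 gave a log2 ratio of 0.09 (SE 0.039, 95% interval -0.0031 to 0.19), with an unadjusted p of 0.0555 and an adjusted p of 0.349 by edgeR over all tiles, of which 0.0157% were called. That of T6 over T0 was 0.03 (SE 0.039, interval -0.07 to 0.13, edgeR adjusted p 1.00) and that of T48 over T6 was 0.06 (SE 0.039, interval -0.03 to 0.16, edgeR adjusted p 0.636), with 0% of tiles called in either. For the contacts listed throughout, the intervals of the sum over the whole 400 kb reach no further than 0.19 on the log2 scale. Intervals of single 50 kb windows are wider. They reach 0.73 at T48 over T6 in the window 55,300,001 to 55,350,000.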

How the data were processed

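The tools named are CASAVA 1.8.2 and Bowtie2, with build mm9, per the submitters' processing notes. Not given in the sources used here are the restriction enzyme, the caller of interactions with its threshold, and whether bin coverage was corrected. The deposited table gives raw read-pair counts per library for pairs of 5 kb bins, per the file headers. Sample titles gave each library's group and replicate number. The 4 mitochondrial pairs were left out.

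Counts of the 542,645 pairs listed at all 3 time points were tested with edgeR 4.0.16 in R 4.3.3: TMM, filterByExpr and the two-sided quasi-likelihood F test, with all 6 libraries in 1 fit and Benjamini-Hochberg adjustment over the whole table at 0.05. They were also summed per 50 kb window and per 400 kb tile, a pair within 1 window counted once. Alternatives were DESeq2 1.42.0, its size factors, no filter, a replicate block, leaving out each library, other window sizes, counting per end, a stricter list and looser matching of pairs. Shares of counts have 95% Wilson intervals. The contacts named were the 5 strongest of the Klf4 bins for their distance, the 3 of lowest p per comparison, the 3 bins with most pairs, and every pair of the Klf4 bins with the distal bins. Other contacts, bins and ranges were chosen after their values were seen. The locus, its bins and these rules were chosen with earlier results of these data known. No mm9 annotation was used, so no other gene was placed on a bin, and genes of like pattern were not sought.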

Additional observations from a re-analysis of the deposited data

How the results depend on the processing

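The number of listed pairs depended on how far above the limit of the list a pair had to be. When both replicates had to reach 1.5 times the minimum listed for that distance, the locus had 52 pairs at T0, 41 at T6 and 62 at T48, and the time points shared 20 (T0 and T6), 26 (T0 and T48) and 24 (T6 and T48). Applied to single groups of pairs, which was added after seeing the data, the same minimum left 18, 9 and 19 pairs of 500 kb or more in the locus, 2, 1 and 7 of them in the Klf4 bins, and 20,143, 15,938 and 29,979 over the genome. With each end allowed to differ by 1 bin, 168, 172 and 159 pairs were shared. Counts of called pairs and windows of the locus were 0 under every setting run, with 0 to 0 when 1 library was left out. Leaving out 1 library moved the log2 ratio of the 400 kb locus between 0.0018 and 0.057 for T6 over T0, 0.057 and 0.13 for T48 over T0, and 0.026 and 0.097 for T48 over T6, and the difference in 3′ share from T0 between -33.7 and -30.4 points. The 3′ share could not be computed over pairs listed at all time points, since there were 0, and the contact of the Klf4 bins with the distal bins had no value under any setting.

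In fits with a replicate block, edgeR's adjusted p for T48 over T0 of the whole locus was 0.0611 (log2 ratio 0.094) and the lowest of its windows 0.208, and no call of the locus changed. Over the genome, calls in the order T6 over T0, T48 over T0 and T48 over T6 were 0, 13 and 9 windows in the edgeR fit reported, 16, 116 and 83 with DESeq2, and 12, 310 and 193 with the block. They were 0, 1 and 0 tiles as reported, 4, 348 and 161 with DESeq2, and 0, 836 and 379 with the block, and 0 pairs as reported, 1, 95 and 78 with DESeq2, and 0, 1 and 1 with the block. Replicate differences of the time points correlated at 0.408, 0.347 and 0.345 over pairs, 0.740, 0.649 and 0.647 over windows, and 0.927, 0.861 and 0.858 over tiles (T0 with T6, T0 with T48, T6 with T48), but the labels give the numbers no common origin. Depth limits single long contacts, for which the lowest count listed was 3.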
